A study of Homo sapiens with 24 samples.

Results

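Glutathione is the main small thiol of the cell, and 10 genes that make it, keep it reduced or join it to other molecules were followed in MDA686TU cells, an established head and neck squamous cell carcinoma line. The genes were GCLC, GCLM, GSS, GSR, GSTP1, GSTO1, GSTM3, GSTA4, MGST1 and MGST2, picked by symbol and matched to the Ensembl identifiers of the raw count table, where they are 10 of 60617 genes. All 10 passed the filter on low counts and are among the 15476 genes tested. The experiment had 4 groups of 6 libraries: untreated control (NT), EGCG at 40 µM, resveratrol at 15 µM, and the combination of both agents at these doses, all collected after 24 h. EGCG is the main catechin of green tea, and resveratrol is a polyphenol of grapes. Water was the solvent of EGCG and DMSO that of the resveratrol stock. The methods do not state what solvent the control cells received, and an effect of resveratrol and one of DMSO cannot be told apart. The line comes from 1 tumour. The labels number the replicates but do not say that they are separate cultures, so p-values measure the spread between these libraries, which may be technical.

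Glutamate-cysteine ligase joins glutamate to cysteine in the rate-limiting step of glutathione synthesis. GCLC encodes its catalytic subunit and GCLM its modifier subunit, which raises the affinity of the enzyme for glutamate. Glutathione synthetase (GSS) adds glycine, and glutathione reductase (GSR) uses NADPH to return oxidized glutathione to its thiol form. Glutathione transferases attach the thiol to electrophiles such as carcinogens and drugs. GSTP1, GSTM3, GSTA4 and GSTO1 are cytosolic, while MGST1 and MGST2 sit in membranes. Many of these genes carry antioxidant response elements, the sites bound by the transcription factor NRF2, and GSTP1 is known as an abundant transferase of squamous carcinomas.

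Promoter sequence of 7 of the 10 genes was found in RefSeq (GRCh38.p14). No entry was found for GSS, GSR and MGST2. The 250 bases before each start site were searched on both strands for the core of the antioxidant response element, TGACNNNGC, of the amino acid response element, TGATGNAA, and of the site of the aryl hydrocarbon receptor, GCGTG. The antioxidant core was in GCLM, GSTP1, GSTO1 and GSTA4, and in 10.9% of all 35116 promoters searched in the same way. The amino acid response core was in none of the 7 genes and in 3.14% of all promoters. GCGTG was in GCLC, GCLM and GSTM3 and in 32.2% of all promoters. These windows are not all outside transcripts: GENCODE exons of the same gene cover 182 of the 250 bases for GSTO1, whose RefSeq start lies inside the GENCODE span of the gene, 70 for GSTP1, 26 for GCLM and 20 for GSTA4. The start used for GCLC also lies inside its span. GCLM, GCLC and GSTP1 were picked for display because they are a moderate rise, the largest rise and no called change in the results that follow. Only parts of their windows are shown, of 144, 150 and 100 bases. Each is read 5′ to 3′ on the strand of its gene. Capitals mark the antioxidant core in GCLM, where it lies on the opposite strand, and in GSTP1, and the reverse complement of GCGTG in GCLC.
GCLM: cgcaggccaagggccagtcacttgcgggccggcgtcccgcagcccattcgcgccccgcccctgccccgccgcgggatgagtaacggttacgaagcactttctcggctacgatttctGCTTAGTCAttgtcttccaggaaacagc
GCLC: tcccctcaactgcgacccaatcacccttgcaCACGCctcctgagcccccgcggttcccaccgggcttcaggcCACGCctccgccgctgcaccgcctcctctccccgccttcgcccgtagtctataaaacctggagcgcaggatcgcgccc
GSTP1: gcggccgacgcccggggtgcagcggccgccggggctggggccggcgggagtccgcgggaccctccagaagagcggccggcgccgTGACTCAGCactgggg
The GCLM part is chr1:93909437-93909580 on the minus strand, and its match TGACTAAGC spans positions -34 to -26 counted from the start site. The GCGTG matches of GCLM, at -202 to -198 and -159 to -155, lie outside this part. The GCLC part is chr6:53545102-53545251 on the minus strand, with matches at -119 to -115 and at -78 to -74. A further GCLC match, at -173 to -169, lies outside this part. The GSTP1 part is chr11:67583662-67583761 on the plus strand, and its match TGACTCAGC spans -66 to -58. A match is a match of letters and not a shown binding site. The absence of the antioxidant core from the GCLC promoter covers only the 250 bases searched.

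The libraries held 7034872 to 11735574 counts. Replicates 1 to 3 and replicates 4 to 6 formed distinct sets in every group, with mitochondrial transcripts at 0.249% to 0.326% and at 0.448% to 0.775% of counts. Each set holds 3 libraries of every group. Markers of squamous epithelium were high in all libraries (KRT5 34340 to 49380 normalized counts, TP63 3286 to 3859). PTPRC and PECAM1, markers of leukocytes and endothelium, were at no more than 1.29 and 1.06. Other markers of such cell types, CD3E and PDGFRB, were at no more than 1.032 and 2.266. Higher values were seen for CD68 (1.063 to 9.643), VWF (2.255 to 18.99) and COL1A2 (12.24 to 28.86). COL1A1, a collagen gene of mesenchymal cells, was at 875 to 1718, and its part in the results was not tested.

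Levels of the genes differed widely in untreated cells. FPKM, which scales counts by gene length, was 705 ± 22.8 (SD, n = 6) for GSTP1, which placed it 48th among 33693 detected genes. GSTO1 followed at 47.2 ± 3.88, GSR at 33.2 ± 0.826, GSS at 20.9 ± 0.807 and MGST1 at 18.3 ± 0.719. GCLC was at 10.1 ± 0.272. The ranges over 6 libraries did not overlap between neighbours in this order down to GCLC and GCLM. GCLM (5.32 ± 0.250) and MGST2 (5.07 ± 0.457) overlapped. GSTA4 (0.779 ± 0.205) and GSTM3 (0.284 ± 0.0791) were lowest, with raw counts of 4 to 29 and 7 to 42 per library over all groups. The order depends on the length used. With the length of the MANE Select transcript, chosen after seeing the data, MGST1 came 2nd and MGST2 was above GCLM, while GSTP1 stayed 1st and GSTA4 and GSTM3 last.

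DEGs were defined by edgeR's quasi-likelihood test, with a Benjamini-Hochberg adjusted p under 0.1 over all 15476 genes and an unadjusted p under 0.05, the limits of the study's methods. Fold changes in the text are log2 values from this test. With resveratrol 6 of the 10 genes rose and none fell, where 56.9% of all tested genes were DEGs and 28.9% rose. With the combination 6 rose and none fell, where 59.8% of all genes were DEGs and 29.9% rose. The 6 were GCLC, GCLM, GSS, GSR, GSTM3 and MGST2 in each case, and both comparisons share the 6 control libraries. With EGCG 2 rose, GCLC and GSS, where 1.76% of all genes were DEGs and 0.905% rose. Over the 10 genes the median log2 fold change was 0.04 with EGCG, and it was 0.37 with resveratrol and 0.33 with both agents. Over all genes tested this median was 0.00 in each, a value that the scaling between libraries (TMM) holds near 0. With library size alone the median over all genes was 0.01, 0.09 and 0.08. Every resveratrol library was above every control library for 4 of the 10 genes and 15.1% of all genes, and every combination library was for 5 of them and 15.4% of all. RNA-seq counts are relative to the whole library, so fewer expressing cells and less RNA per cell cannot be told apart.

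**Figure D1:**
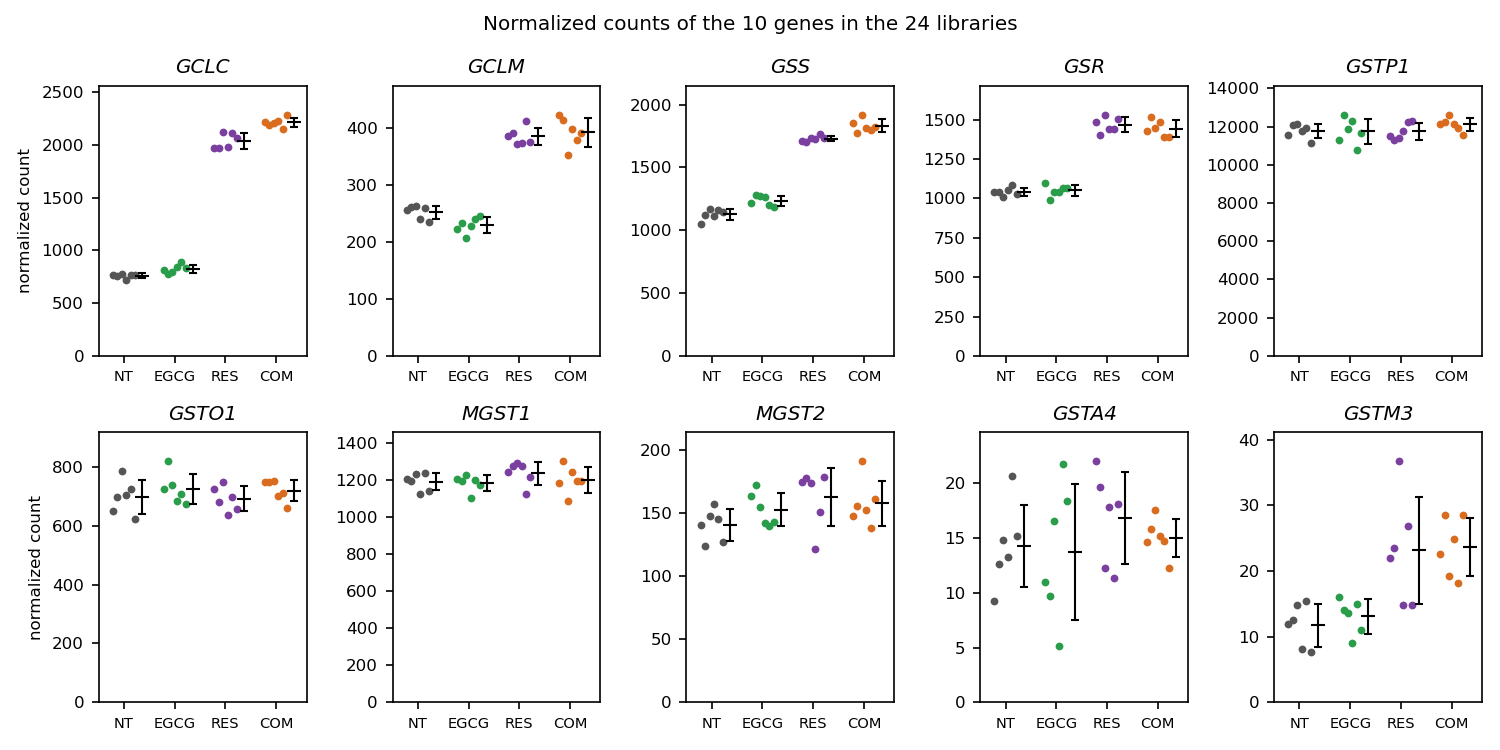
Normalized counts of the 10 genes (y axis, linear and starting at 0, a separate scale for each gene) in the 4 groups (x axis, RES for resveratrol and COM for the combination). Points are the 6 libraries of a group in replicate order, and the bar gives the mean and SD. GCLC, GCLM, GSS and GSR have every resveratrol and combination library above every control library, and GSTP1, GSTO1 and MGST1 overlap in all groups.

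GCLC (ENSG00000001084, chr6:53497341-53616970 on GRCh38, minus strand, 16 exons in its MANE Select transcript) had the largest rise of the 4 genes of synthesis and reduction. In untreated cells its normalized count was 721 at the lowest, 766 at the median and 781 at the highest library. It was 779.9, 824 and 889.9 with EGCG. With resveratrol the values were 1966, 2023 and 2121, and with the combination 2153, 2216 and 2284. The resveratrol and combination libraries lay far above both other groups, all combination libraries lay above all resveratrol libraries, and the EGCG range touched that of the control at its lower end.

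GCLC rose by 1.42 ± 0.0330 (SE) with resveratrol, a fold of 2.68 (edgeR adjusted p = 1.075e-28). It rose by 1.54 ± 0.0331 with the combination, a fold of 2.91 (adjusted p = 2.038e-29). Ordered by p, GCLC was 3rd of all 15476 genes with resveratrol and 1st with the combination. Ordered by log2 fold change from the highest, GCLC was 69th and 79th. The study itself measured GCLC by qPCR, so its choice was not independent of these agents.

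EGCG had a small effect on GCLC. The log2 fold change with EGCG was 0.12 ± 0.0346 (adjusted p = 0.07739), and it was 0.05 within replicates 1 to 3 and 0.19 within replicates 4 to 6. In the EGCG group every library of replicates 4 to 6 was above every library of replicates 1 to 3, with means of 856 and 796, while the control means were 751 and 770.2. The call was lost within replicates 1 to 3 (adjusted p = 0.8734). It was also lost when any 1 of 9 libraries was left out, namely control replicates 1, 2, 4, 5 and 6 and EGCG replicates 1, 4, 5 and 6, where the log2 fold change was 0.10 to 0.12 and the adjusted p 0.1125 to 0.2127.

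The combination was above resveratrol alone for GCLC by 0.12 ± 0.0309 (95% interval 0.06 to 0.18, edgeR adjusted p = 0.01638). GCLC was the 1 gene of the 10 called in this comparison, where 7.86% of all genes were DEGs and 4.01% were higher. The difference in replicates 1 to 3 was 0.12 and that in replicates 4 to 6 was 0.11, and it was not called within either set of 3 libraries (adjusted p = 0.1183 and 0.1678). The interaction, the change with the combination beyond the sum of both single changes on the log2 scale, was 0.00 for GCLC with a 95% interval of -0.10 to 0.09. None of the 10 genes was called for interaction by edgeR, where 0.265% of all genes were, and GCLM was the 1 gene with an unadjusted p under 0.05. DESeq2 also called none.

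GCLM (ENSG00000023909, chr1:93885199-93909456, minus strand, 7 exons) encodes the partner subunit and rose less than GCLC. The normalized count of GCLM was 235, 257 and 263 in the lowest, median and highest control library. With EGCG it was 207, 231 and 246. Resveratrol gave 372, 381 and 413, and the combination 352, 394 and 423. Resveratrol and combination libraries were all above control and EGCG libraries, and they overlapped each other. GCLM rose by 0.62 ± 0.0495 with resveratrol (fold 1.53, adjusted p = 5.688e-13) and by 0.64 ± 0.04999 with the combination (fold 1.56, adjusted p = 1.964e-13).

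With EGCG the GCLM value was -0.13 ± 0.0538 and was not called (edgeR adjusted p = 0.3219). The sets of libraries gave -0.23 (replicates 1 to 3) and -0.04 (replicates 4 to 6). The interaction for GCLM was 0.16 ± 0.0713 with an unadjusted p of 0.03345 and an adjusted p of 0.5985 by edgeR, so it was not called. Combination and resveratrol differed by 0.02, with a 95% interval of -0.07 to 0.12.

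The balance of both ligase transcripts moved toward GCLC on the FPKM scale. The ratio of GCLC to GCLM FPKM within a library was 1.84, 1.88 and 2.05 in the lowest, median and highest control library. It was 2.101, 2.32 and 2.41 with EGCG. Resveratrol gave 3.17, 3.28 and 3.59, and the combination 3.31, 3.55 and 3.95. The mean rose from 1.90 ± 0.0750 (SD, n = 6) in the control to 2.27 ± 0.124, 3.33 ± 0.165 and 3.56 ± 0.239. No EGCG library overlapped the control, no resveratrol or combination library overlapped EGCG, and resveratrol and the combination overlapped. The ratio is a description without a test, and its height depends on gene length: with MANE Select lengths the means were 3.90, 4.65, 6.83 and 7.30. A ratio of transcripts is not a ratio of subunits.

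**Figure D2:**
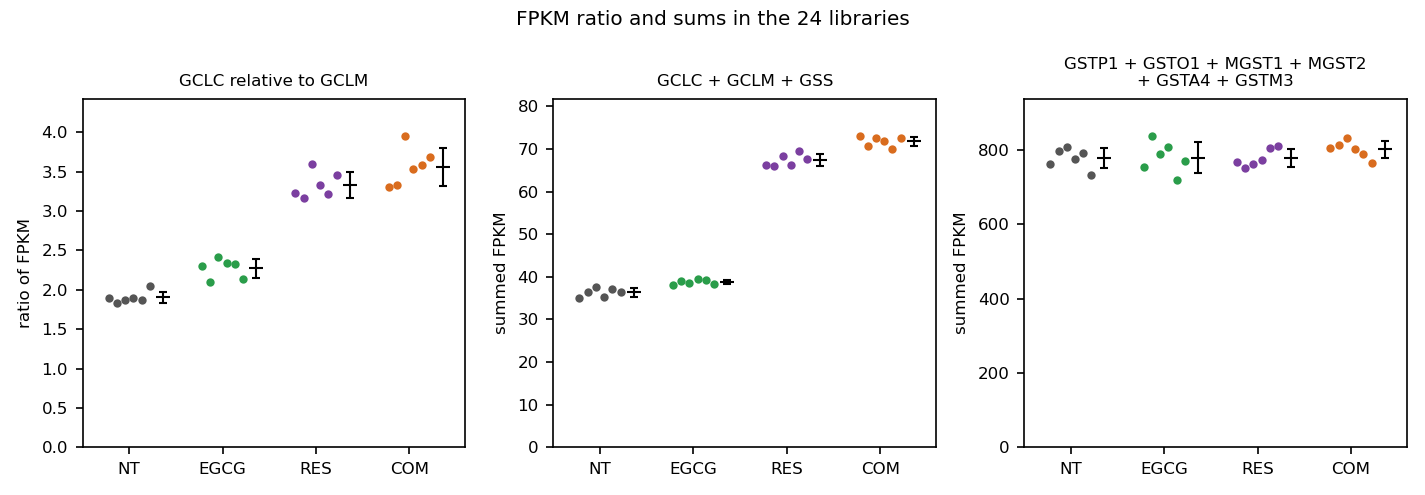
Left, ratio of GCLC to GCLM FPKM per library; middle, summed FPKM of GCLC, GCLM and GSS; right, summed FPKM of the 6 transferases (all y axes linear from 0, groups on the x axis, points are libraries, bars the mean and SD over 6). The ratio and the sum for synthesis are higher in all resveratrol and combination libraries than in all control libraries, and the transferase sum lies between 719 and 836 in all groups.

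GSS (ENSG00000100983, chr20:34928432-34956027, minus strand, 13 exons) encodes the enzyme of the second step. In normalized counts GSS was at 1051, 1135 and 1169 in the lowest, median and highest control library and 1184, 1240.2 and 1279.7 with EGCG. With resveratrol it was at 1701.4, 1729 and 1768, and the combination gave 1774, 1819.7 and 1917. The 4 groups did not overlap, in the order control, EGCG, resveratrol and combination. GSS rose by 0.62 ± 0.0311 with resveratrol (fold 1.54, adjusted p = 1.343e-18) and by 0.70 ± 0.0312 with the combination (fold 1.63, adjusted p = 2.7e-20).

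EGCG alone raised GSS by 0.13 ± 0.0317 (95% interval 0.07 to 0.20, edgeR adjusted p = 0.01865). Replicates 1 to 3 gave 0.18 and replicates 4 to 6 gave 0.09, and neither set of 3 libraries gave a call alone (adjusted p = 0.1727 and 0.6562). GSS was the 1 gene of the 10 with every EGCG library above every control library, as was true of 0.788% of all genes. The combination was above resveratrol by 0.08 ± 0.0304, which was not called (edgeR adjusted p = 0.1258) although every combination library was above every resveratrol library. GSS shared this with GCLC and with 1.83% of all genes. With DESeq2 this difference was 0.08 and passed (adjusted p = 0.08389).

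The study's methods selected pathway genes on these libraries, and GCLC and GSS are both in its xenobiotic metabolism list, so their rise is not independent evidence for that list. The summed FPKM of GCLC, GCLM and GSS was 36.4 ± 1.01 (SD, n = 6) in untreated cells and 38.8 ± 0.566 after EGCG. It reached 67.3 ± 1.44 after resveratrol and 71.7 ± 1.16 after both agents.

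GSR (ENSG00000104687, minus strand, 13 exons) encodes the reductase, an FAD enzyme that spends NADPH. For GSR the normalized count was 1009, 1041 and 1085 in the lowest, median and highest control library and 992, 1055 and 1101 with EGCG. With resveratrol the values were 1405, 1466 and 1530.3, and the combination gave 1387, 1438 and 1519.6. Libraries with resveratrol, alone or combined, all lay above the others, and EGCG overlapped the control. GSR rose by 0.50 ± 0.0323 with resveratrol (fold 1.41, adjusted p = 1.715e-15) and by 0.47 ± 0.0325 with the combination (fold 1.39, adjusted p = 5.858e-15). With EGCG the value was 0.02 ± 0.0330. Combination and resveratrol differed by -0.03, and neither difference was called.

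**Figure D3:**
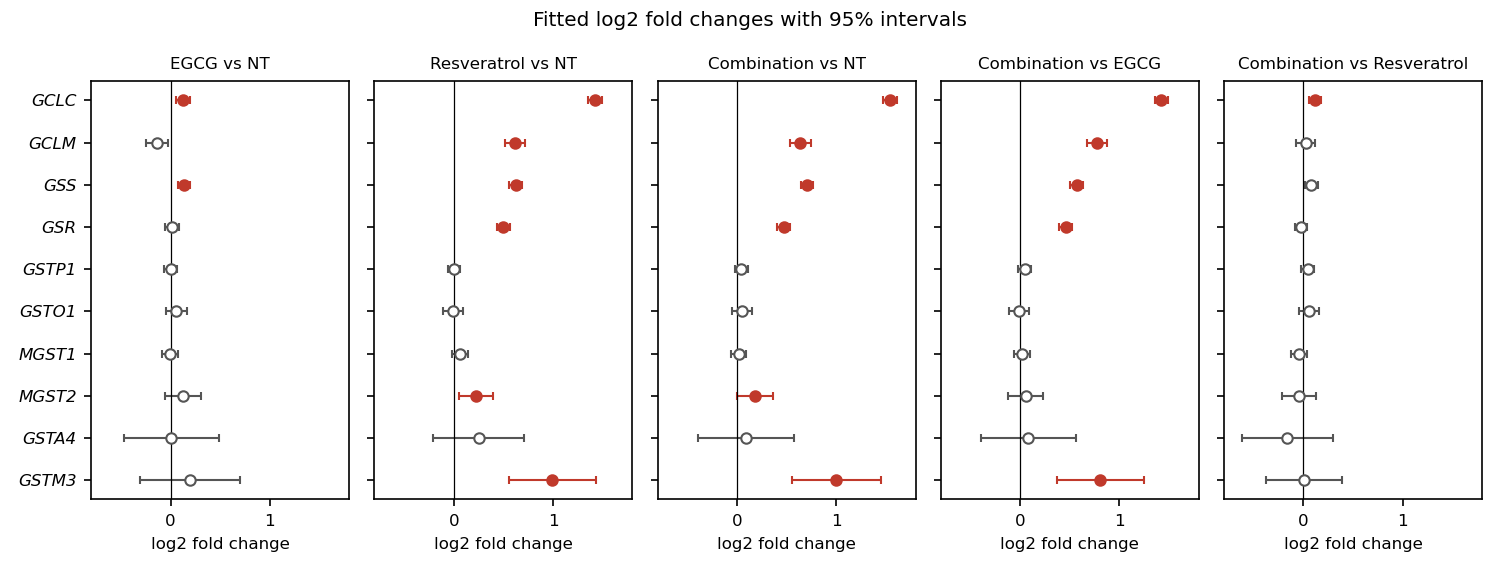
Fitted log2 fold change (x axis) of the 10 genes (y axis) in 5 comparisons, with 95% intervals from edgeR; filled red points are DEGs and open points are not. The points of GCLC, GCLM, GSS and GSR lie right of 0 where resveratrol is present, near 0 for EGCG alone and for the combination against resveratrol, and the intervals of GSTA4 and GSTM3, the genes with the fewest counts, are the widest.

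GSTP1 (ENSG00000084207, chr11:67583742-67586656, plus strand, 7 exons) was the most abundant of the transferases and was not called in any comparison by the test above. The normalized count was 11116, 11841 and 12125 in the lowest, median and highest control library and 10779, 11770.1 and 12592 with EGCG. Resveratrol gave 11279, 11632 and 12312, and the combination 11577, 12132 and 12609. All 4 groups overlapped. The log2 fold change was 0.00 for EGCG, 0.00 for resveratrol and 0.04 for the combination, with 95% intervals of -0.06 to 0.06, -0.06 to 0.06 and -0.02 to 0.11. Within the resveratrol group the 3 libraries of replicates 1 to 3 lay below the other 3 (means 11387 and 12103), and within the combination group they lay above them (12335 and 11882). The direction and the call of this small value depend on the settings. With library size alone GSTP1 rose by 0.09 with resveratrol and 0.13 with the combination, where the median of all genes also moved to 0.09 and 0.08. The combination was also called against the control with at least 10 counts in every library (0.07, edgeR adjusted p = 0.04048), with only the groups compared (0.06, adjusted p = 0.0398) and without control replicate 5 (0.07, adjusted p = 0.07511). Against EGCG it was called with library size alone (0.12), with at least 10 counts (0.07) and without EGCG replicate 2 (0.08) or 4 (0.08).

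GSTO1 (ENSG00000148834, chr10:104235356-104267459, plus strand, 6 exons), an omega class enzyme that reduces rather than conjugates many of its substrates, also overlapped in all groups. Its normalized count was 623, 701 and 785 in the lowest, median and highest control library and 672, 717 and 818 with EGCG. Resveratrol gave 635, 689 and 749.0, and the combination 659, 728 and 751. The log2 fold changes were 0.06, -0.01 and 0.05 against the control, with 95% intervals between -0.11 and 0.16. The sets of libraries differed more than the groups: with EGCG and with the combination all of replicates 1 to 3 were above all of replicates 4 to 6 (means 760.2 and 688, and 748 and 689).

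MGST1 (ENSG00000008394, chr12:16347142-16609259, plus strand, 4 exons) encodes a membrane transferase that also reduces lipid hydroperoxides. Its normalized count was 1127, 1201 and 1241 in the lowest, median and highest control library and 1101, 1196 and 1229.9 with EGCG. Resveratrol gave 1123, 1258 and 1294, and the combination 1089, 1197 and 1301. The groups overlapped, and no change was called by the test above: -0.01, 0.06 and 0.01, with 95% intervals of -0.08 to 0.07, -0.02 to 0.14 and -0.06 to 0.09. The resveratrol value of MGST1 was called with at least 10 counts in every library (0.09, edgeR adjusted p = 0.05956), with library size alone (0.15, adjusted p = 0.001878), and without control replicate 5 (0.09, adjusted p = 0.06884) or resveratrol replicate 5 (0.09, adjusted p = 0.05599). A processed pseudogene on the opposite strand, SUPT16HP1, lies in an intron (mean normalized count 241).

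MGST2 (ENSG00000085871, chr4:139665768-139740745, plus strand, 5 exons), which can also make leukotriene C4, showed a small rise that depended on the libraries used. Its normalized count was 124, 143 and 157 in the lowest, median and highest control library and 139.97, 149 and 172 with EGCG. Resveratrol gave 122, 174 and 178.5 and the combination 138, 154 and 191, so all groups overlapped. The log2 fold change was 0.22 ± 0.0861 with resveratrol (edgeR adjusted p = 0.02898) and 0.18 ± 0.0879 with the combination (adjusted p = 0.08048). Within replicates 1 to 3 these values were 0.36 and 0.28, and within replicates 4 to 6 they were 0.07 and 0.08 and not called. The combination call was lost with DESeq2, with DESeq2 size factors, with an adjusted p under 0.05 and when any 1 of 6 libraries was left out: control replicate 1 (0.18), 2 (0.15) or 6 (0.15), or combination replicate 2 (0.19), 3 (0.11) or 6 (0.18). An opposite-strand pseudogene, H3P16, lies within MGST2 (mean normalized count 514) and shares 0 exon bases with it. MAML3, also on the opposite strand, shares 252 exon bases with MGST2 and had a mean normalized count of 4.86.

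GSTM3 (ENSG00000134202, chr1:109733932-109741038, minus strand, 9 exons), a mu class transferase, had the second largest log2 rise of the 10 genes at one of the lowest levels. Normalized counts of GSTM3 were 7.60, 12.3 and 15.5 in the lowest, median and highest control library, and 8.996, 13.8 and 15.99 with EGCG. They were 14.8, 22.8 and 36.7 after resveratrol and 18.1, 23.7 and 28.5 after both agents. Combination libraries lay above all control libraries, and the resveratrol range overlapped the control. GSTM3 rose by 0.99 ± 0.217 with resveratrol (fold 1.99, adjusted p = 0.0002176) and by 1.00 ± 0.221 with the combination (fold 2.002, adjusted p = 0.0002127). Within the sets of libraries the rise was 1.06 and 0.86 for resveratrol and 0.82 and 1.21 for the combination, each called. Mu class genes share sequence, and how reads matching several of them were counted is not given in the sources used here, so the split among GSTM1, GSTM2, GSTM3, GSTM4 and GSTM5 is uncertain. Their summed normalized count was 139 ± 11.8 (SD, n = 6) in untreated cells and 140.0 ± 10.0 after EGCG, against 204 ± 19.7 after resveratrol and 199 ± 17.3 after both agents.

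GSTA4 (ENSG00000170899, chr6:52977948-52995304, minus strand, 7 exons), which conjugates the lipid peroxidation product 4-hydroxynonenal, was too low for a small change to be detectable. Normalized counts of GSTA4 were 9.22, 14.01 and 20.6 in the lowest, median and highest control library and 5.14, 13.7 and 21.7 with EGCG. Resveratrol gave 11.4, 17.9 and 21.97, and the combination 12.2, 14.9 and 17.5. All groups overlapped. The log2 values were 0.01, 0.25 and 0.09, with 95% intervals of -0.47 to 0.48, -0.21 to 0.71 and -0.39 to 0.57.

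On the FPKM scale GSTP1 made up most of the 6 transferases in every group. GSTP1 took 90.8% ± 0.341 (SD, n = 6) of their summed FPKM in untreated cells, 90.5% ± 0.578 after EGCG, 90.6% ± 0.685 after resveratrol and 90.7% ± 0.173 after both agents. GSTM3 took 0.0363% in the control and 0.0715% with the combination. The summed FPKM was 777 ± 26.9, 779 ± 41.1, 778 ± 24.3 and 800.4 ± 22.8 in the 4 groups. With MANE Select lengths the GSTP1 share was 87.1% in the control and 87.1% with the combination. With resveratrol all 3 synthesis genes and 2 of the 6 transferases rose, where 56.9% of all genes were DEGs and 28.9% rose. The call of MGST2 was lost within replicates 4 to 6. The difference between the counts of synthesis genes and transferases was not tested.

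Against EGCG alone, the combination was higher for 5 of the 10 genes and lower for none, where 57.8% of all genes were DEGs and 28.7% rose. The 5 were GCLC at 1.42 ± 0.0329, GSTM3 at 0.81 ± 0.215, GCLM at 0.77 ± 0.0509, GSS at 0.57 ± 0.0310 and GSR at 0.46 ± 0.0325. All 5 had every combination library above every EGCG library, as 13.4% of all genes did. MGST2 was at 0.05 ± 0.0870 and was not called.

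The rest of the glutathione system was read from 59 other genes in 5 lists, of which 40 were tested. With resveratrol 23 rose and 9 fell, where 56.9% of all genes were DEGs, and with the combination 22 rose and 11 fell, where 59.8% were. With EGCG 2 rose and 3 fell, where 1.76% of all genes were DEGs. The combination differed from resveratrol in 2 upward and 3 downward, where 7.86% of all genes were DEGs. The median log2 fold change of the 40 genes was 0.28 with resveratrol and 0.26 with the combination.

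Among 20 other transferases 11 were tested, and with the combination 9 rose and 1 fell, where 29.9% of all genes rose. GSTM4 rose by 0.81 ± 0.164, GSTT2B by 0.73 ± 0.0727, GSTT2 by 0.69 ± 0.0734, GSTK1 by 0.64 ± 0.0618 and GSTM2 by 0.63 ± 0.136. GSTK1 is a mitochondrial and peroxisomal transferase, and its normalized count was 196 ± 18.2 in the control and 304 ± 23.7 with the combination. GSTT2 and GSTT2B are near-identical copies, so their split is uncertain. Their sum was 248 ± 19.6 in the control and 405 ± 26.3 with the combination. GSTT1 is not analysed here.

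The list of glutathione peroxidases, glutaredoxins and glyoxalases went both ways, with 5 higher and 5 lower of 11 tested with the combination. Of all genes, 59.8% were DEGs in this comparison and 29.9% rose. GPX2, a selenium-dependent peroxidase of epithelia, rose by 1.23 ± 0.0602, from 238 ± 18.3 to 554 ± 59.3 normalized counts. GLRX, a thiol transferase that removes glutathione from proteins, rose by 1.02 ± 0.145, and HAGH, the second glyoxalase, by 0.64 ± 0.0761. GLRX3, a cytosolic iron-sulfur glutaredoxin, fell by 0.56 on the log2 scale.

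GPX1 and GPX4, both selenium-dependent peroxidases, fell with EGCG. They were the 2 genes called of 11 tested in this list, where 1.76% of all genes were DEGs. GPX2, also selenium-dependent, was not called with EGCG. The mean normalized count of GPX1 was 1724 ± 143 in untreated cells and 1671 ± 62.3 after resveratrol, against 1143 ± 80.7 after EGCG and 1088 ± 51.9 after both agents. Both EGCG groups lay below both groups without EGCG. The log2 fold change of GPX1 was -0.59 ± 0.0461 with EGCG (edgeR adjusted p = 1.496e-11) and -0.66 ± 0.0463 with the combination, and it was -0.04 and not called with resveratrol. GPX4 fell by 0.22 on the log2 scale with EGCG (adjusted p = 0.006454), rose by 0.29 with resveratrol and was at 0.01 and not called with the combination.

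**Figure D4:**
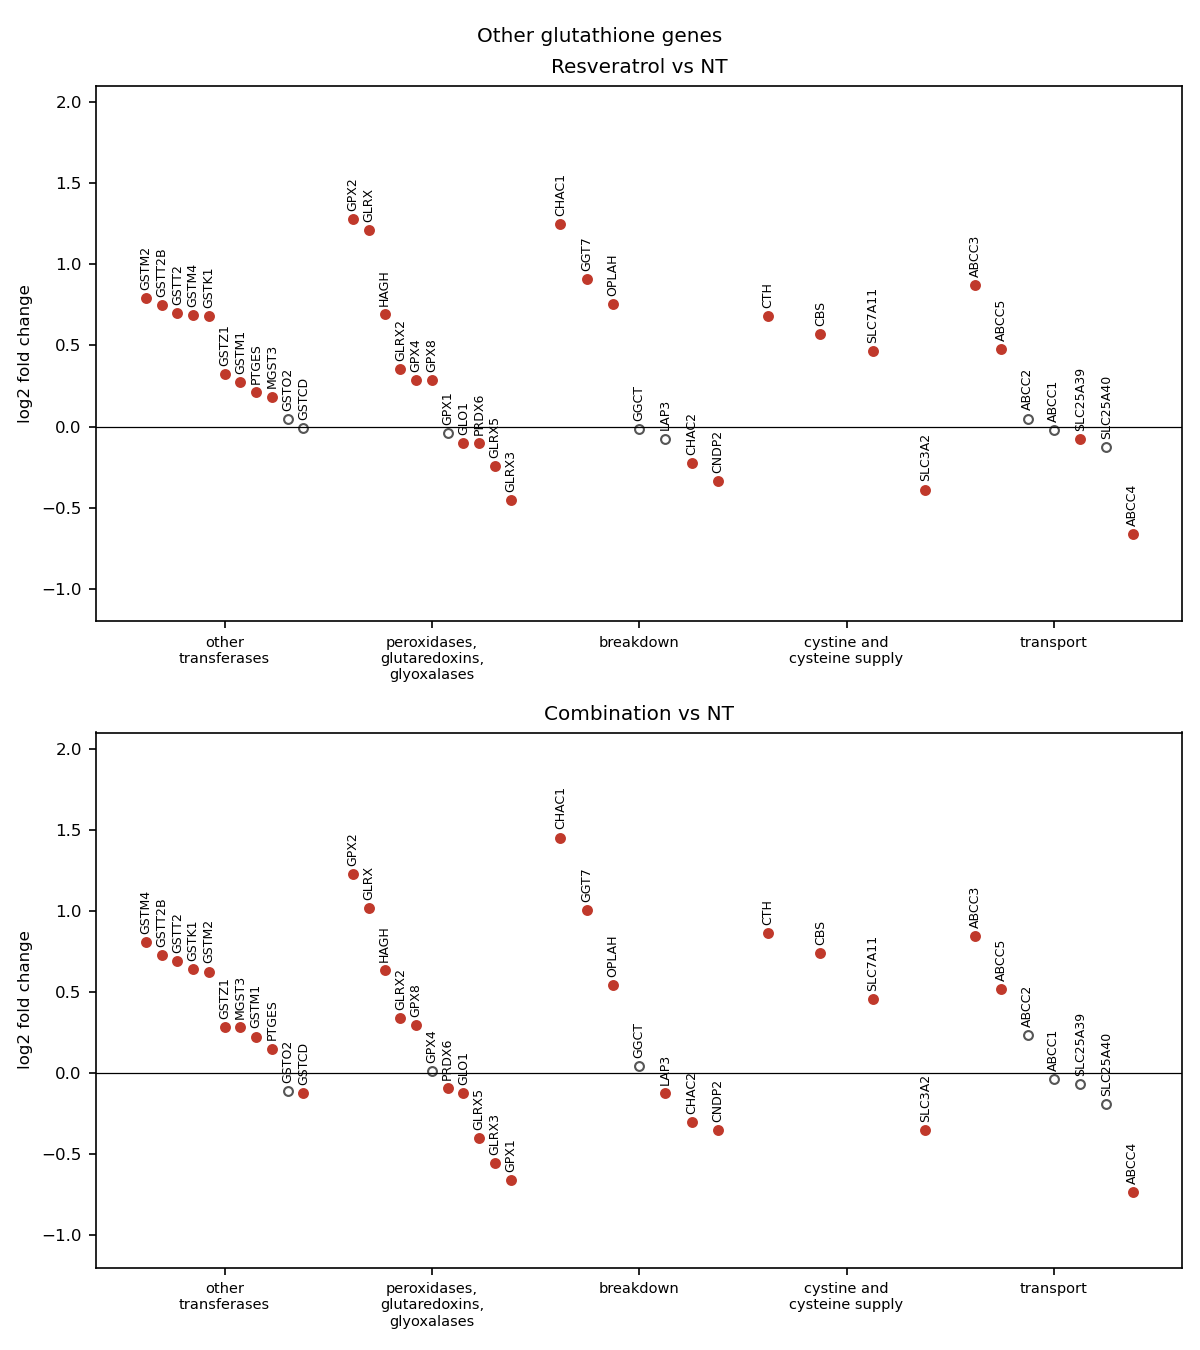
Log2 fold change (y axis) of the 40 tested genes of the 5 lists (x axis) with resveratrol, above, and with the combination, below, both against the control; filled red points are DEGs and open points are not. CHAC1, GPX2 and GLRX are highest, ABCC4 is lowest in both panels, and GPX1 is called with the combination and not with resveratrol.

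Breakdown genes were led by CHAC1, which encodes a cytosolic enzyme that cleaves glutathione. CHAC1 rose by 1.45 ± 0.0384 with the combination, from 496 ± 24.3 to 1354 ± 64.3 normalized counts, by 1.25 ± 0.0385 with resveratrol and by 0.28 ± 0.0408 with EGCG. Of 7 breakdown genes tested, 3 rose and 3 fell with the combination, where 59.8% of all genes were DEGs and 29.9% rose. GGT7 rose by 1.01 ± 0.0847 and OPLAH, which recycles 5-oxoproline to glutamate, by 0.54 ± 0.0945, while CNDP2 fell by 0.35 and CHAC2 by 0.30 on the log2 scale.

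For cystine and cysteine supply, 3 of 4 tested genes rose and 1 fell with the combination. Of all genes, 59.8% were DEGs with the combination and 29.9% rose. CTH and CBS, the enzymes that make cysteine from homocysteine, rose by 0.86 ± 0.0988 and 0.74 ± 0.0432. SLC7A11, the light chain of the cystine importer, rose by 0.46 ± 0.0532, and SLC3A2, its heavy chain, fell by 0.35 on the log2 scale. The study measured SLC7A11 by qPCR. Of 7 transport genes 2 rose and 1 fell with the combination, against the same 29.9% that rose and 59.8% that were DEGs. ABCC3 rose by 0.84 ± 0.0503 and ABCC5 by 0.52 ± 0.0626, and ABCC4 fell by 0.73 on the log2 scale.

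NRF2 target genes outside glutathione metabolism, 8 in number, rose in 8 cases with resveratrol and in 6 with the combination, where 28.9% and 29.9% of all genes rose. With EGCG 1 fell, TXNRD1, and none rose, where 1.76% of all genes were DEGs and 0.905% rose. With the combination OSGIN1 rose by 1.51 ± 0.0607 and HMOX1 by 0.94 ± 0.149. Of 6 genes for NRF2 and its regulators, 5 rose with the combination, against the same 29.9% of all genes, among them MAFG at 0.51 ± 0.0486 and KEAP1 at 0.23 ± 0.0371. NFE2L2, the gene of NRF2 itself, was at 0.01 ± 0.0268 and was not called. The study measured HMOX1 by qPCR on cells treated with these agents.

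Genes most like GCLC were found by the root mean square difference of mean-centred log2 CPM over the 24 libraries. The 5 nearest were INHBE (0.101), OSGIN1 (0.111), GABARAPL1 (0.114), MAP2 (0.114) and ACSS2 (0.115), against a median of 0.737 over all genes tested. The log2 rise of INHBE was 1.44 with resveratrol and 1.56 with the combination. For GCLM the nearest were KRT80 (0.0972), IDH1 (0.0993), FADS1 (0.105), FTLP3 (0.106) and SESN3 (0.106), against a median of 0.402. GCLM and GCLC were not in each other's 5 nearest. The distance is not scaled for the size of change, and GCLC rose more than GCLM. It therefore cannot tell whether both genes share a pattern across the libraries. FTLP3 is a pseudogene whose reads may come from its parent gene. The distances are descriptions and carry no test.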

How the data were processed

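RNA-seq of 24 libraries was used, 6 per group. The methods and labels state TruSeq stranded mRNA libraries, bcl2fastq 2.17.1.14, Trimmomatic 0.36, FastQC 0.11.5, HISAT2 2.0.4 on GRCh38, SAMtools 1.3.1 and DESeq2 1.20.0. The counting program, annotation release, strand setting and handling of reads matching several genes are not given in the sources used here. The authors deposited raw counts per gene, not normalized, with no replicates pooled. The deposited normalized counts are a signal that the authors made from the raw counts with 1 size factor per library. The authors' FPKM are these divided by gene length, and that length was within 10% of the GENCODE v44 union of exons for 86.5% of 11355 genes compared. Libraries of a group differed by more than sampling noise (chi-square per degree of freedom 1.22 to 5.96), so none was counted as a duplicate.

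edgeR 4.0.16 (R 4.3.3) was run on the raw counts, all libraries in 1 model (TMM, filterByExpr, quasi-likelihood test, Benjamini-Hochberg over 15476 genes). The SE is the log2 fold change over the square root of F. Group values use the deposited normalized counts. Their SD is over 6 libraries and includes counting error. The biological coefficient of variation was 5.32%. The steps were tested on simulated data in which few genes changed, as many up as down. A change of most genes, as with resveratrol here, was not simulated.

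The members and lists were chosen with earlier results of these data known. The text names all 10 members, for each list up to 5 DEGs with the largest change with the combination and up to 2 others with the highest counts, of which some are left out, and the 5 genes nearest to GCLC and to GCLM. Other genes were chosen after their values were seen. Alternatives were DESeq2 1.42.0, DESeq2 size factors, library size alone, every gene with at least 1 count, at least 10 counts in every library, adjusted p under 0.05, only the groups compared, the replicate number as a block, the set of libraries as a term, each set alone, and each library left out. MANE Select lengths were added after seeing the data. qPCR and animal data were not analysed here.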

Additional observations from a re-analysis of the deposited data

Results flagged for a closer look

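GCLC in untreated control replicate 4 stood apart from the other 5 control libraries. Its normalized count was 721, against 760.3 in the nearest library, a gap of 0.655 of the whole range of the group. Of 40 groups of 6 libraries checked over the 10 genes, this was 1, where chance gives about 2. Without this library the log2 fold change of GCLC with EGCG was 0.11 and was not called (edgeR adjusted p = 0.2089).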

How the results depend on the processing

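The rises of GCLC, GCLM, GSS and GSR with resveratrol, with the combination, and for the combination against EGCG kept their direction and their call under every alternative run. Calls at the edge did not. The count of the 10 genes called with EGCG, 2 in the report, was 1 with every gene of at least 1 count, with an adjusted p under 0.05, with only the groups compared and in replicates 4 to 6 alone, and it was 0 in replicates 1 to 3 alone. For the combination against resveratrol the count, 1 in the report, was 2 with DESeq2, with at least 10 counts in every library and with the set of libraries as a term, where GSS passed, and 0 within either set of 3 libraries. With each library left out in turn, the counts were 1 to 2 with EGCG, 6 to 7 with resveratrol, 5 to 7 with the combination, 1 to 1 for the combination against resveratrol and 5 to 6 for the combination against EGCG. Of the other glutathione genes, 1 was called with EGCG and 3 for the combination against resveratrol within replicates 4 to 6. Sets of 3 libraries have fewer samples. Elsewhere the cause was not tested.

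With library size alone, GSTP1, GSTO1 and MGST1 were called with the combination at 0.13, 0.13 and 0.098, GSTP1 and MGST1 with resveratrol at 0.089 and 0.15, and both for the combination against EGCG at 0.12 and 0.097. With at least 10 counts in every library GSTP1 was called with the combination at 0.0704 and against EGCG at 0.0715, and MGST1 with resveratrol at 0.0864. With only the groups compared GSTP1 was called with the combination at 0.0644. With library size alone the genes called higher with resveratrol went from 4466 of 8807 to 6147 of 9004 over all genes. The count of all genes called with the interaction, 41, was 69 with DESeq2, 92 with every gene of at least 1 count, 79 with the set term, and 6 and 24 within the sets. With EGCG it went from 273 to 84 and 85 within the sets. With MANE Select lengths the GCLC to GCLM ratio was 3.90, 4.65, 6.83 and 7.30 and the GSTP1 share 87.1%, 86.9%, 86.7% and 87.1% in the control, EGCG, resveratrol and combination groups.

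Same-numbered libraries of different groups correlated between -0.00252 and 0.131 in their deviations. No level for differently numbered libraries was set beside these values, so they cannot decide whether the numbers pair the samples. Against the control, 3 of 6 libraries correlated best with their own number for EGCG, 2 for resveratrol and 3 for the combination. It was 1 of 6 for the combination against resveratrol and 3 for the combination against EGCG. About 1 of 6 would do so if the numbers carried no meaning, and these counts were not tested. With the replicate number as a block, 370 genes were called with EGCG and 85 for the interaction, and 2 of the 10 genes for the combination against resveratrol, as GSS passed (adjusted p = 0.08065). GSTP1 and GSTA4 were then at -0.00022 and -0.0096 with EGCG. The block changed no other call of the 10 genes.

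Other changes of sign were of values that were not called. With DESeq2, GSTP1 and GSTA4 were at -0.0018 and -0.012 with EGCG, GSTP1 at -0.0015 with resveratrol and the GCLC interaction at 4.2e-05. With DESeq2 size factors, GSTP1 was at -0.0015 with EGCG and -0.0014 with resveratrol, and the GCLC interaction at 0.00049. With library size alone, MGST1 was at 0.0012 with EGCG, and GSTO1 at 0.082 with resveratrol and 0.065 for the combination against EGCG. GSTP1 was at -0.0037 with resveratrol with every gene of at least 1 count and at -0.00083 with EGCG with only the groups compared. With at least 10 counts in every library, GSTP1 was at -0.0011 with EGCG, and GSTO1 at 0.019 with resveratrol and 0.016 for the combination against EGCG.

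Within replicates 1 to 3, MGST1 was at 0.0014 with EGCG, GSTP1 at -0.059 and GSTO1 at 0.023 with resveratrol, MGST1 at -0.021 with the combination and -0.023 for the combination against EGCG, GSTM3 at -0.24 for the combination against resveratrol, and the GCLC interaction at 0.071. Within replicates 4 to 6, GSTP1, GSTA4 and MGST2 were at -0.0048, -0.0046 and -0.014 with EGCG. GSTA4 was at -0.051 with resveratrol, -0.22 with the combination and -0.21 for the combination against EGCG. For the combination against resveratrol GSTP1, MGST1 and MGST2 were at -0.027, 0.0081 and 0.012, and the interactions of GSTP1, GSTM3, GSTO1, MGST1 and MGST2 were -0.022, 0.11, 0.037, 0.019 and 0.026.

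With each library left out, values whose sign changed ranged with EGCG from -0.00040 to 0.032 for GSR, -0.020 to 0.025 for GSTP1, -0.21 to 0.14 for GSTA4 and -0.021 to 0.013 for MGST1. With resveratrol they ranged from -0.013 to 0.023 for GSTP1 and -0.037 to 0.031 for GSTO1, and with the combination from -0.017 to 0.23 for GSTA4 and -0.0090 to 0.044 for MGST1. For the interaction they ranged from -0.019 to 0.022 for GCLC, -0.28 to 0.0017 for GSTM3, -0.30 to 0.051 for GSTA4 and -0.042 to 0.031 for GSTO1. For the combination against EGCG they ranged from -0.032 to 0.30 for GSTA4, -0.027 to 0.042 for GSTO1, -0.0030 to 0.048 for MGST1 and -0.016 to 0.11 for MGST2, and against resveratrol from -0.087 to 0.20 for GSTM3. Depth limits GSTM3 and GSTA4, with at most 42 and 29 counts in a library.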

Other observations

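Several classic glutathione genes were at or near 0 in these cells. These genes were chosen after their values were seen. GSTA2, GSTA5, HPGDS, GPX5 and GPX6 had no count in any of the 24 libraries, which allows up to 3 counts over their summed 211100186 counts, or 0.0142 CPM, for counting error only. GSTA1, the main alpha class transferase of liver, had 4 counts in all, and GSTA3 had 2. GGT1, the surface enzyme that starts the breakdown of extracellular glutathione, had a mean normalized count of 1.42 in the control and 1.25 with the combination. Of 59 genes in the lists of other glutathione genes, 19 were not tested. GSTP1, GSTO1 and the microsomal MGST1 and MGST3 were the transferases of highest count, with mean normalized counts over 24 libraries of 11840, 708, 1204 and 338.

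TXNRD1, the selenium-dependent thioredoxin reductase, fell by 0.32 on the log2 scale with EGCG (edgeR adjusted p = 1.254e-11), rose by 0.73 ± 0.0248 with resveratrol and by 0.44 ± 0.0248 with the combination, and the combination was below resveratrol by -0.29 ± 0.0246 (adjusted p = 2.107e-10). GSR, its counterpart for glutathione, was at 0.02 with EGCG and at -0.03 for the combination against resveratrol, and neither was called. The difference between TXNRD1 and GSR was not tested.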
